A study of Homo sapiens with 12 samples.

Results

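GO-Rg3 is a drug carrier made of flakes of graphene oxide (GO), a single-layer oxidized carbon sheet, to which ginsenoside Rg3, a saponin of Korean ginseng, was joined by esterification in sulfuric acid. The response of Huh7 cells to GO-Rg3 was compared with untreated cells over every gene that reached 10 counts or more in 3 or more of the 12 samples of the series. This selection kept 17092 of the 63677 genes counted, and 6 of the 12 samples entered the comparison. Huh7 is an established human hepatocellular carcinoma cell line. It was sequenced as 3 samples of cells given GO-Rg3 at 400 ug/ml for 6 h and 3 samples of control non-treated cells that received medium only. The same series held 3 samples given GO at 400 ug/ml, which are used here for side-by-side values, and 3 samples given GO-Rg3 loaded with doxorubicin (GO-Rg3-DOX) at 100 ug/ml. Cells given free Rg3 or free DOX were not analysed here, so an effect of Rg3 cannot be told apart from that of the esterification of GO. The study also reports larger and thicker flakes with a less negative surface charge for GO-Rg3 than for GO. An effect of these changes cannot be told apart either.

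Several of the pathways described below are known from liver cells. NF-kappaB is a family of transcription factors released from inhibitors by inflammatory and stress signals, and its targets include chemokines, adhesion molecules, survival factors and its own inhibitors. Bone morphogenetic proteins (BMPs) act through SMAD transcription factors, which switch on the ID genes, inhibitors of helix-loop-helix factors, and the inhibitory SMADs that end the signal. CYP1A1, a monooxygenase that oxidizes aromatic compounds, is the classical target of the aryl hydrocarbon receptor (AHR). Rg3 was placed on the carrier by the study with the aim of limiting oxidative stress, to which cells answer with glutathione and thioredoxin enzymes.

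Counts per sample were 34750147, 28421737 and 38877420 without treatment and 33512785, 27802871 and 34690207 with GO-Rg3, so that 1 CPM, a level normalized for library size, stood for 27.8 to 38.9 counts in these samples. Depth bears on counting error only, since the reads carried no molecular identifiers that would mark independent molecules. The 10 hepatocyte and hepatoma markers were all measured, summed to 21630 to 21820 CPM without treatment and 16720 to 20110 CPM with GO-Rg3, and none was called by edgeR or DESeq2, with 2 lower at an unadjusted p below 0.05. ALB, the plasma protein albumin, had a log2 fold change of -0.25, adjusted p = 0.46, and AFP, the fetal albumin homologue, one of -0.37, adjusted p = 0.34. In bulk RNA, fewer cells of a kind and less RNA per cell cannot be told apart. Of 8 leukocyte markers 3 passed the filter and summed to 151 to 157 CPM without treatment and 115 to 134 CPM with GO-Rg3, and MS4A1 had no counts. Nearly all of this sum was LYZ, with means of 150.1 CPM without treatment and 121.3 CPM with GO-Rg3. CD14 and ITGAM had means of 1.25 and 1.90 CPM without treatment. Of 8 fibroblast and endothelium markers 5 passed and summed to 4.78 to 6.11 and 4.82 to 6.70 CPM, and PECAM1 had no counts. Of 10 markers of the mesenchymal breast cancer line that the study also used 8 passed and summed to 448.2 to 467.5 and 440.7 to 455.9 CPM, PLAU and S100A4 fell, and MSN had no counts. Mitochondrially encoded genes took 5.31%, 5.84% and 6.28% of the counts in untreated cells and 6.89%, 7.40% and 7.42% with GO-Rg3. All 3 GO-Rg3 samples were higher, by 1.43 percentage points on average (exact two-sided permutation p = 0.1, the smallest that 3 samples against 3 can give). Nothing in the labels says that the 3 samples of a group came from separate cultures, so the p-values measure only the spread between these samples, which may be technical.

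The response to GO-Rg3 was small in size. With the adjusted p required to be under 0.01 and the log2 fold change to exceed 1 in size, 2 genes rose (0.0117% of those tested) and 8 fell (0.0468%) in edgeR's quasi-likelihood test. The rises were SH3TC2, which encodes an endosomal protein, and C6orf222. The falls were CYP1A1, ID3, DKK1, a secreted inhibitor of Wnt signaling, NDUFA4 and COX17, which serve the respiratory chain, SLIRP, which binds mitochondrial RNA, BOLA3, which takes part in iron-sulfur cluster assembly, and the pseudogene SNRPGP10. At an adjusted p below 0.05 with no limit on the fold, 43 genes rose (0.252%) and 214 fell (1.25%). In 36 of the 43 rises and 172 of the 214 falls the absolute log2 fold change was under 1, with medians of 0.66 and -0.72. All genes tested had a median within 0.01 of 0 on the log2 scale.

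The 43 rises comprised 36 protein-coding genes, and 28 of the 43 were on none of the gene lists described below. Among the 214 falls were 184 protein-coding genes, 15 pseudogenes and 8 long noncoding RNAs. Of these falls, 38 belonged to 3 lists: 15 cytosolic ribosomal proteins, 17 nuclear-encoded respiratory chain subunits and 6 mitochondrial ribosomal proteins. No rise came from those 3 lists. The samples of the 2 groups did not overlap in 1558 genes that were higher (9.12%) and 2845 that were lower (16.6%) with GO-Rg3, a set that held all 43 rises and all 214 falls.

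These counts depended on each of the 6 samples. Without untreated sample 1, 2 or 3 the fit called 4, 4 and 2 rises and 15, 12 and 6 falls at an adjusted p below 0.05. It called 16 rises and 27 falls without GO-Rg3 sample 1, 145 and 385 without sample 2, and 11 and 29 without sample 3. Adjusting for GC content gave 313 rises and 454 falls, a larger share of rises than the 43 and 214 of the unadjusted fit, and DESeq2 gave 155 and 490. Among 82 named genes that were called, 7 stayed past the threshold whichever sample was left out: CYP1A1, DKK1, ID3, ID4, BIRC3, BOLA3 and SLC6A14. The other 75 were lost without at least 1 untreated sample, and none of the 82 changed direction when a sample was left out.

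The NF-kappaB and inflammation list held more of the rises than any other list. Of its 20 measured genes 9 rose and none fell, against 0.252% and 1.25% of all genes, and 17 were higher. The median log2 fold change of the list was 0.59, and the medians of GO-Rg3 samples 1, 2 and 3 against the untreated mean were 0.62, 0.28 and 0.63. Its genes summed to 1489, 1516 and 1477 CPM in untreated cells and to 1829, 1889 and 1875 CPM with GO-Rg3. The 9 that rose were the feedback genes TNFAIP3 and BIRC3, the cytokines CXCL1, CXCL2, CXCL3 and CSF1, and the effectors ICAM1, SOD2 and LCN2. Leaving out any one untreated sample gave 1 rise, leaving out GO-Rg3 samples 1, 2 and 3 gave 6, 12 and 4, and the other alternatives gave 7 to 13.

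The sequence before the start of 5 of these genes held the NF-kappaB consensus, and is shown here. These 5 are shown because they held a match, and the list was made of NF-kappaB targets. The matches are therefore a description and no separate evidence. The windows are the 250 bases before the annotated start of each gene, taken from RefSeq on GRCh38.p14 and written 5′ to 3′ on the strand of the gene, with each match in capitals. They are CXCL1 at chr4:73869143-73869392 (plus strand), CXCL2 at chr4:74099196-74099445 (minus strand), CXCL3 at chr4:74038690-74038939 (minus strand), TNFAIP3 at chr6:137867009-137867258 (plus strand) and BIRC3 at chr11:102317234-102317483 (plus strand).
CXCL1: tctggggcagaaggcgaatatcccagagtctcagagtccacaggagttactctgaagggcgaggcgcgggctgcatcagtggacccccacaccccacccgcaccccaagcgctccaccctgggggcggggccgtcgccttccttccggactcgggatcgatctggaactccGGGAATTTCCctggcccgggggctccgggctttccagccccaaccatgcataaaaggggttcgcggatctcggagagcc
CXCL2: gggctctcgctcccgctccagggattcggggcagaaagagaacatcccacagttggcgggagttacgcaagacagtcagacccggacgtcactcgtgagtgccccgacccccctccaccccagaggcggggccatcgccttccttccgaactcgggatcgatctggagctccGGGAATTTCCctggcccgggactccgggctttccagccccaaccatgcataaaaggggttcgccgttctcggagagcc
CXCL3: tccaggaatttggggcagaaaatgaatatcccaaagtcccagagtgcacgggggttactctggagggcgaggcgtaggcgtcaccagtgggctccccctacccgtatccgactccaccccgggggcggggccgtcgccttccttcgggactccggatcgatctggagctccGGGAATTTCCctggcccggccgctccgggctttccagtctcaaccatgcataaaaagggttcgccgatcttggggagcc
TNFAIP3: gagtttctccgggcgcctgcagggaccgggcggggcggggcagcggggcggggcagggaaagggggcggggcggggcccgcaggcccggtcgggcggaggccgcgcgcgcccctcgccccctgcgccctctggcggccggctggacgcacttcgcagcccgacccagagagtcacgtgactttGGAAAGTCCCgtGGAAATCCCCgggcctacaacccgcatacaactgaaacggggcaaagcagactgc
BIRC3: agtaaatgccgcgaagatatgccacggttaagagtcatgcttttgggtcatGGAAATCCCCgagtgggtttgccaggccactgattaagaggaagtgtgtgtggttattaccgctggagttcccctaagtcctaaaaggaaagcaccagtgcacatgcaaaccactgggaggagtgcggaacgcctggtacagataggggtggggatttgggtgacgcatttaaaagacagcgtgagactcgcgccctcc
In the 3 chemokine genes, which lie near each other on chromosome 4, the match was the same 10 letters, GGGAATTTCC, beginning 79, 78 and 79 bases before the start. TNFAIP3 held 2 matches, GGAAAGTCCC at 67 bases and GGAAATCCCC at 55 bases before its start. BIRC3 held GGAAATCCCC at 199 bases. The consensus was searched on both strands and occurred in 2417 of 35116 such windows (6.88%). Of the 9 list members that rose 8 had a window in the table, and ICAM1, LCN2 and SOD2 held no match in it, while 11 of the 16 list genes in the table held one whether they rose or not. A match is a run of letters and does not show that the factor was bound there.

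TNFAIP3 (ENSG00000118503, GRCh37 chr6:138188351-138204451) encodes A20, an enzyme that edits ubiquitin chains and ends NF-kappaB signaling. Its levels were 30.9, 30.8 and 28.3 CPM in the untreated samples and 51.2, 55.6 and 49.7 CPM in the GO-Rg3 samples. Every treated sample was above every untreated one, with a log2 fold change of 0.80 ± 0.12 (SE, adjusted p = 0.0083). BIRC3 (ENSG00000023445, GRCh37 chr11:102188215-102210134), an inhibitor of apoptosis that acts at the tumor necrosis factor receptor, had 8.10, 8.44 and 6.81 CPM without treatment and 14.9, 16.6 and 14.8 CPM with GO-Rg3. The groups did not overlap, and the log2 fold change was 0.99 ± 0.12 (SE, adjusted p = 0.0022). Other feedback genes missed the threshold. NFKB2, the precursor of an NF-kappaB subunit, was higher without overlap and had a log2 fold change of 0.59, adjusted p = 0.074, and NFKBIA, the classical inhibitor of NF-kappaB, one of -0.09, adjusted p = 0.78, both chosen after their values were seen.

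The neutrophil-attracting chemokines rose together. CXCL1 had 29.6, 30.6 and 30.6 CPM without treatment and 47.1, 53.2 and 49.4 CPM with GO-Rg3, a log2 fold change of 0.72 ± 0.11 (SE, adjusted p = 0.0082). CXCL3 had 6.14, 6.27 and 6.41 CPM without treatment and 9.60, 11.7 and 10.96 CPM with GO-Rg3, with a log2 fold change of 0.78 ± 0.15 (SE, adjusted p = 0.02). CXCL2, named beside them after its value was seen, was closer to the threshold, with 6.67, 7.001 and 7.39 CPM without treatment and 8.52, 11.2 and 12.1 CPM with GO-Rg3 and a log2 fold change of 0.59 ± 0.14 (SE, adjusted p = 0.049). In all 3 genes the treated samples were above the untreated ones, and GO-Rg3 sample 1 was the lowest of the treated samples. CCL20, a chemokine for other leukocytes, overlapped between the groups and had a log2 fold change of -0.16, adjusted p = 0.64. It was chosen after its value was seen.

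ICAM1, an adhesion receptor for leukocytes, had 212, 200.5 and 198 CPM without treatment and 385, 255 and 325 CPM with GO-Rg3. GO-Rg3 sample 2 was the lowest of the treated samples, still above all untreated ones, and the log2 fold change was 0.66 ± 0.13 (SE, adjusted p = 0.025). CSF1, the growth factor of macrophages, had the same order of treated samples, with 37.9, 35.8 and 34.6 CPM without treatment and 65.4, 41.9 and 54.0 CPM with GO-Rg3 and a log2 fold change of 0.58 ± 0.13 (SE, adjusted p = 0.045). SOD2, the superoxide dismutase of mitochondria and an NF-kappaB target, had 311, 304 and 303 CPM without treatment and 452, 526 and 462 CPM with GO-Rg3. Here sample 2 was the highest, and the log2 fold change was 0.65 ± 0.10 (SE, adjusted p = 0.0082). LCN2, an iron-siderophore carrier of innate immunity, was barely detectable, with 8, 7 and 8 counts without treatment and 28, 25 and 31 counts with GO-Rg3. Its log2 fold change of 1.91 ± 0.42 (SE, adjusted p = 0.037) rests on these small counts. SERPINA3, an acute-phase protease inhibitor, was also low, with 14, 18 and 21 counts against 40, 44 and 48, and had a log2 fold change of 1.37 ± 0.22 (SE, adjusted p = 0.01). Of the 15 acute-phase genes measured edgeR called this one and DESeq2 called 2, both higher.

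**Figure D1:**
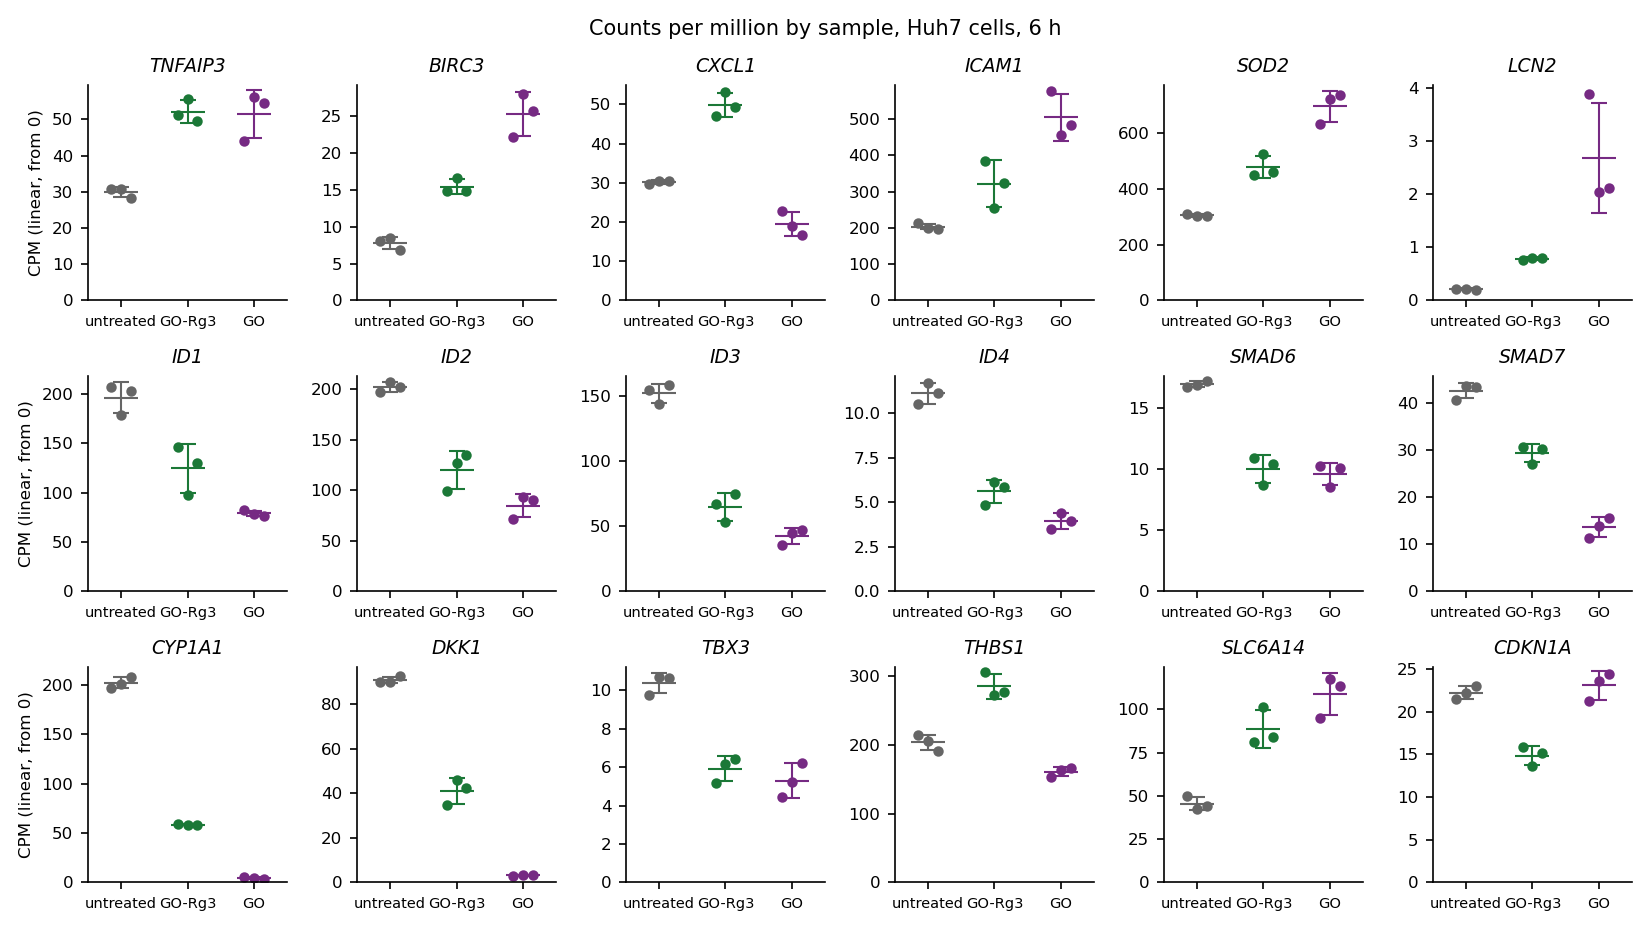
Normalized level in CPM (linear axes from 0) of 18 genes in each untreated, GO-Rg3 and GO sample, with the mean and SD of the 3 samples of each group. The 18 genes were picked from the called genes, none of which had overlapping untreated and GO-Rg3 samples. Of all genes 9.12% were higher and 16.6% lower without overlap. The inflammatory genes and THBS1 and SLC6A14 were higher with GO-Rg3, and the ID genes, SMAD6, SMAD7, CYP1A1, DKK1, TBX3 and CDKN1A were lower.

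Other rises were scattered over small groups, and stand against rises in 0.252% of all genes. SLC6A14, an amino acid importer, had 50.03, 42.7 and 43.9 CPM without treatment and 81.1, 101.5 and 83.8 CPM with GO-Rg3, a log2 fold change of 0.96 ± 0.11 (SE, adjusted p = 0.0017), and no sample of one group reached the other. SH3TC2 rose by a log2 fold change of 1.12 ± 0.18 (SE, adjusted p = 0.009), and C6orf222 by a log2 fold change of 1.37 ± 0.19 (SE, adjusted p = 0.0053) from 21, 20 and 24 counts to 49, 50 and 63. Of the 19 immediate early genes FOSB and FOSL2 rose, both subunits of the AP-1 transcription factor. FOSB had a log2 fold change of 0.81, adjusted p = 0.011, FOSL2 had a log2 fold change of 0.54, adjusted p = 0.024, and the median of the 19 was 0.08. PHLDA1 was the single call by edgeR among 13 genes induced by ERK signaling, at a log2 fold change of 0.52, adjusted p = 0.042. THBS1, the matrix protein thrombospondin and a YAP-TEAD target, had 214, 206 and 191 CPM without treatment and 306, 273 and 277 CPM with GO-Rg3. Its log2 fold change was 0.49 ± 0.09 (SE, adjusted p = 0.019), the single call by edgeR among 14 genes of the YAP-TEAD list. DESeq2 called 2 of the 14 higher. THBS1 stayed past the threshold in 1 of 6 fits without a sample. The list had 0 to 3 rises without a sample and 1 to 6 under the other alternatives. SLC39A8, an importer of zinc, was the single call by edgeR among 12 metal response genes, at a log2 fold change of 0.55, adjusted p = 0.015. The rises also included SOX9, a transcription factor of biliary and progenitor cells (log2 fold change 0.68, adjusted p = 0.018), OTUD1, a deubiquitinase (log2 fold change 0.70, adjusted p = 0.0097), and PCYT1B, an enzyme of phosphatidylcholine synthesis (log2 fold change 0.89, adjusted p = 0.032).

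The 4 ID genes and both inhibitory SMADs fell. Of 13 measured genes on the BMP-SMAD and TGF-beta list 6 fell and none rose, against 1.25% and 0.252% of all genes tested, and the median log2 fold change was -0.54. The list divided by role: the 8 BMP targets were all lower, with 6 called and a median of -0.73, whereas none of the 5 TGF-beta targets was called by edgeR and their median was 0.11. At an unadjusted p below 0.05 there were 2 of these 5, both higher, and DESeq2 called 1 of them. Without untreated samples 1, 2 and 3 the falls numbered 3, 2 and 2, and without GO-Rg3 samples 1, 2 and 3 they numbered 4, 6 and 4. The other alternatives gave 4 to 7.

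ID3 (ENSG00000117318, GRCh37 chr1:23884417-23885992) had 155, 144 and 159 CPM in the untreated samples and 67.4, 53.1 and 74.7 CPM in the GO-Rg3 samples. No treated sample was above 74.7 CPM and no untreated sample below 144 CPM, and the log2 fold change was -1.23 ± 0.14 (SE, adjusted p = 0.0017). ID1 had 208, 178 and 203 CPM without treatment and 146, 97.8 and 130.5 CPM with GO-Rg3, with a log2 fold change of -0.65 ± 0.12 (SE, adjusted p = 0.02). ID2 had 198, 207 and 202 CPM without treatment and 99.4, 126.7 and 134 CPM with GO-Rg3, with a log2 fold change of -0.75 ± 0.14 (SE, adjusted p = 0.018). Neither gene had overlapping groups, although treated samples differed among themselves, sample 2 being the lowest for ID1 and ID3 and sample 1 for ID2. ID4 had 10.5, 11.7 and 11.1 CPM without treatment and 4.87, 6.11 and 5.84 CPM with GO-Rg3 and a log2 fold change of -0.99 ± 0.13 (SE, adjusted p = 0.0037). SMAD6, which blocks BMP receptors and SMADs, had 16.7, 16.9 and 17.2 CPM without treatment and 10.9, 8.71 and 10.4 CPM with GO-Rg3 and a log2 fold change of -0.76 ± 0.11 (SE, adjusted p = 0.0082). SMAD7, which restrains both BMP and TGF-beta receptors, had 40.7, 43.5 and 43.5 CPM without treatment and 30.8, 27.1 and 30.2 CPM with GO-Rg3 and a log2 fold change of -0.54 ± 0.11 (SE, adjusted p = 0.029). ID2, ID4, TNFAIP3, BIRC3, ICAM1, THBS1, DKK1, TBX3 and CDKN1A overlap a transcript annotated on the opposite strand, and SMAD6 one on its own strand. So do BOLA3, COX17, GLRX, GLRX2, GSTM3, FOSB, FOSL2, BMF, TBX2, GATA2, HOXA13 and TNFAIP2 on the opposite strand. This list of overlaps is not complete. Whether the counting used the strand is not given in the sources used here, so such reads may not have been told apart.

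CYP1A1 (ENSG00000140465, GRCh37 chr15:75011883-75017877) showed the largest fall of any gene past an adjusted p of 0.05. Its levels were 197, 201 and 208 CPM in the untreated samples and 58.9, 57.7 and 58.3 CPM in the GO-Rg3 samples. The treated samples lay close together and 3.47-fold below the untreated ones, without overlap, with a log2 fold change of -1.79 ± 0.10 (SE, adjusted p = 1.3e-07). Of 12 AHR-related genes measured edgeR called CYP1A1 alone and DESeq2 called 3, all lower, and their median was -0.17. The 5 target enzymes among them were all lower, with a median of -0.33. NQO1, a quinone reductase that AHR and NRF2 both induce, had a log2 fold change of -0.33, adjusted p = 0.073. Among 19 cytochrome P450 genes edgeR and DESeq2 called no other, and CYP39A1, an oxysterol hydroxylase of bile acid synthesis, had a log2 fold change of -0.29, adjusted p = 0.48. The window of 250 bases before the start of CYP1A1 (GRCh38.p14 chr15:74725529-74725778, minus strand) is shown because the AHR binds a short element, the XRE, whose core GCGTG was searched on both strands.
CYP1A1: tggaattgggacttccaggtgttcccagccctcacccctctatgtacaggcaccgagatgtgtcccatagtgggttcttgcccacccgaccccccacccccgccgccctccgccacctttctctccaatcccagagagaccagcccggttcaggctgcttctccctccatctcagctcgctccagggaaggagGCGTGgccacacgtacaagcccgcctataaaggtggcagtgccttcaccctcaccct
The single core, in capitals, began 57 bases before the start. This short core occurred in 11313 of 35116 windows (32.2%), and its presence is a description only.

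DKK1 (ENSG00000107984, GRCh37 chr10:54074041-54077802), which blocks Wnt co-receptors and is itself a Wnt target, had 90.2, 90.2 and 92.6 CPM in the untreated samples and 34.7, 46.2 and 42.6 CPM in the GO-Rg3 samples. The treated samples were at or below 46.2 CPM and the untreated ones at or above 90.2 CPM, with a log2 fold change of -1.14 ± 0.12 (SE, adjusted p = 0.00095). TBX3, a T-box repressor and also a Wnt target, fell as well, with a log2 fold change of -0.81 ± 0.13 (SE, adjusted p = 0.012). The other 10 of the 12 Wnt feedback genes were not called by edgeR, and the list median was -0.06. CDKN1A, the cell cycle inhibitor p21, had 21.4, 22.2 and 23.0 CPM without treatment and 15.8, 13.6 and 15.1 CPM with GO-Rg3 and a log2 fold change of -0.58 ± 0.10 (SE, adjusted p = 0.018). It was the only one of 19 p53 targets called by edgeR, and their median was 0.04. PLAU, the urokinase protease, had a log2 fold change of -0.66, adjusted p = 0.018. SAMD11 showed a log2 fold change of -1.55, adjusted p = 0.016, with 33, 16 and 50 counts in the GO-Rg3 samples.

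The most numerous coordinated shifts were in genes of protein synthesis and respiration. All 77 measured cytosolic ribosomal protein genes were lower with GO-Rg3, in 71 of them without overlap between the groups (16.6% of all genes), and 15 fell (1.25% of all genes). Their median log2 fold change was -0.59, and their range was -1.38 to -0.18. Summed over the list the levels were 50930, 50640 and 51770 CPM in untreated samples and 33430, 35360 and 36320 CPM in GO-Rg3 samples. Of the large subunit 10 of 46 genes were called and of the small subunit 5 of 31, with medians of -0.55 and -0.66. RPS29, a small-subunit protein, had 259.5, 276 and 298 CPM without treatment and 83.6, 124 and 112 CPM with GO-Rg3 and a log2 fold change of -1.38 ± 0.27 (SE, adjusted p = 0.022). RPS21 had a log2 fold change of -1.16, adjusted p = 0.018, RPL31 had a log2 fold change of -1.03, adjusted p = 0.018, and RPS7 had a log2 fold change of -0.88, adjusted p = 0.019. The number of calls rested on single samples. No gene of the list was called without any one of untreated samples 1 to 3 or of GO-Rg3 samples 1 and 3, while 20 were called without GO-Rg3 sample 2, and the other alternatives gave 8 to 64. The medians without a sample were -0.62 to -0.58. Ribosomal protein genes have many near-identical pseudogenes, so their counts are uncertain.

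Nuclear genes of the respiratory chain were lower as well. Of 78 measured genes 17 fell (1.25% of all genes) and none rose, 72 were lower, and 63 were lower without overlap (16.6% of all genes). The median was -0.50, and the summed levels were 8673, 8735 and 8854 CPM without treatment and 6298, 6717 and 6635 CPM with GO-Rg3. Calls came from complex I (8 of 38), complex II (1 of 4), complex IV (5 of 12) and complex V (3 of 15), and none of the 9 genes of complex III was called by edgeR. Of those 9, 8 were lower at an unadjusted p below 0.05 and 6 were called by DESeq2, which called 490 of all 17092 genes lower. COX7B, a subunit of cytochrome c oxidase, had 67.5, 69.0 and 68.8 CPM without treatment and 19.4, 36.6 and 29.8 CPM with GO-Rg3 and a log2 fold change of -1.26 ± 0.21 (SE, adjusted p = 0.01). NDUFA4, counted here with complex I and among its 8 calls, had a log2 fold change of -1.16, adjusted p = 0.009. NDUFB1, of complex I, had a log2 fold change of -1.18, adjusted p = 0.018, and COX17, a copper chaperone for cytochrome c oxidase, had a log2 fold change of -1.06, adjusted p = 0.009. Leaving out an untreated sample gave 0 or 1 fall, leaving out GO-Rg3 samples 1, 2 and 3 gave 3, 28 and 2, and the other alternatives gave 10 to 50.

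Mitochondrial ribosomal proteins, 71 genes, had 6 falls (1.25% of all genes), no rise (0.252% of all genes) and a median of -0.33. Their summed level went from 3638, 3596 and 3623 to 2838, 3012 and 3030 CPM. Leaving out any sample other than GO-Rg3 sample 2 gave 0 or 1 fall, leaving out that sample gave 12, and the other alternatives gave 0 to 22. SLIRP (log2 fold change -1.09, adjusted p = 0.0072) and BOLA3 (log2 fold change -1.02, adjusted p = 0.0053) serve mitochondria as well. The 15 mitochondrially encoded genes went the other way: all 15 were higher, 14 without overlap (9.12% of all genes), with a median of 0.32. None of the 15 was called by edgeR or DESeq2 or had an unadjusted p below 0.05, while the other alternatives called 0 to 11 rises. Their summed levels were 48720, 52990 and 57460 CPM without treatment and 62340, 66050 and 66150 CPM with GO-Rg3. With these 15 genes left out of the scaling and the fit, the cytosolic ribosomal list had a median of -0.56 with 13 falls and the nuclear respiratory chain list one of -0.47 with 14.

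**Figure D2:**
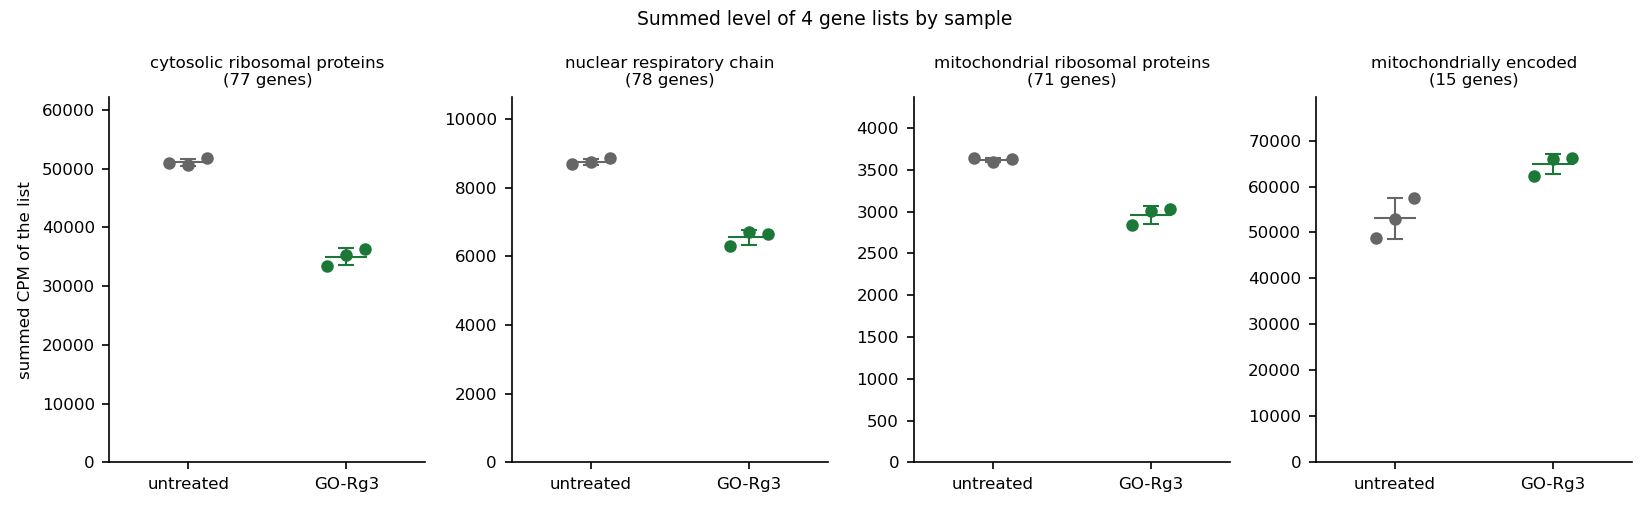
Summed level in CPM (linear axes from 0) of cytosolic ribosomal protein genes, nuclear respiratory chain genes, mitochondrial ribosomal protein genes and mitochondrially encoded genes in each untreated and GO-Rg3 sample, with mean and SD of 3 samples. The 3 nuclear-encoded sums were lower in every GO-Rg3 sample (33430 to 36320 CPM against 50640 to 51770 CPM for cytosolic ribosomal proteins), and the mitochondrially encoded sum was higher (62340 to 66150 CPM against 48720 to 57460 CPM).

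Transcript length moved with these shifts. Genes with transcripts under 500 nt had a median log2 fold change of -0.14, those of 500 to 1000 nt one of -0.16, and those of at least 8000 nt one of 0.11. Of the falls with a known length 90 of 206 (43.7%) were under 1000 nt, of the rises 2 of 39 (5.13%), and of all genes 2228 of 16310 (13.7%). The median lengths were 1114, 4683 and 2834 nt. Across the 16310 genes, which share the same libraries and are not independent replicates, Spearman's rho between length and log2 fold change was 0.27. Between GC content and log2 fold change it was 0.21. When the fit carried an offset for length, 43 genes rose and 90 fell, of which 24 and 86 were among the calls without it. The offset moved the median of all genes under 500 nt from -0.14 to 0.27 and of those of 500 to 1000 nt from -0.16 to 0.13, past 0. The ribosomal list then had a median of -0.34 with 8 falls, the respiratory chain list -0.28 with 10, and the mitochondrial ribosome list -0.16 with none. NF-kappaB genes kept a median of 0.64 with 8 rises, and the BMP-SMAD and TGF-beta list one of -0.43 with 4 falls. The part of length in the falls was not tested beyond this offset.

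**Figure D3:**
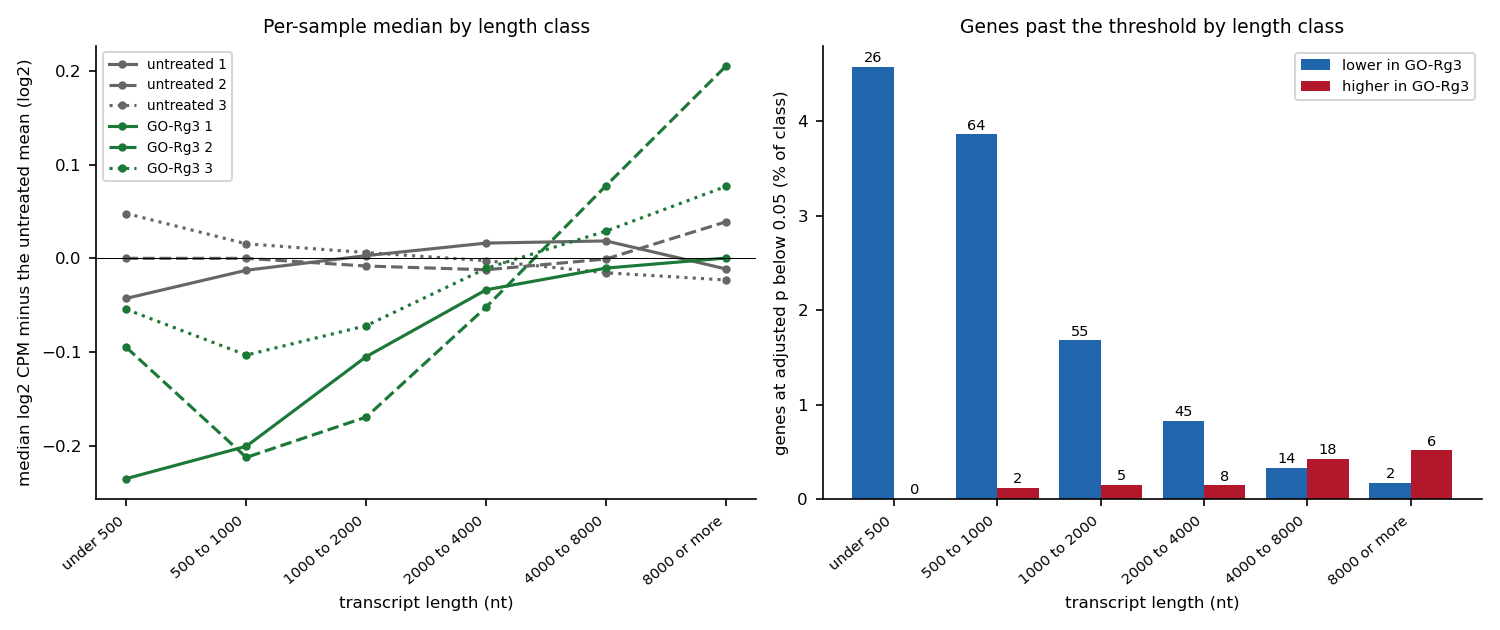
Median log2 level against the untreated mean for genes in 6 classes of transcript length, one line per untreated and GO-Rg3 sample, and the percentage of genes in each class that fell or rose at an adjusted p below 0.05. Falls were called for 4.57% of genes under 500 nt and 0.172% of genes of at least 8000 nt, and rises for none and 0.517%.

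Smaller lists and single genes of short transcripts were lower as well, and their calls stand against falls in 1.25% of all genes. All 14 replication-dependent histone genes measured were lower, with a median of -0.51, and HIST1H2AC fell (log2 fold change -0.51, adjusted p = 0.035). With the length offset the histone median was -0.18 and this call was lost. Of 31 proteasome genes PSMA7 (log2 fold change -0.52, adjusted p = 0.027) and PSMB4 (log2 fold change -0.45, adjusted p = 0.044) fell, with a list median of -0.24, and with the length offset that median was -0.11 and both calls were lost. SNRPG, a core protein of splicing particles, had a log2 fold change of -1.21, adjusted p = 0.018, and its processed pseudogenes SNRPGP10 (log2 fold change -1.31, adjusted p = 0.0082) and SNRPGP2 (log2 fold change -1.32, adjusted p = 0.018) can share reads with it, so these are not separate results. S100P, a calcium-binding protein, had a log2 fold change of -1.17, adjusted p = 0.027. Of 14 small nucleolar RNA host genes SNHG6 fell (log2 fold change -0.73, adjusted p = 0.019), and of 30 DNA replication genes PCNA, the sliding clamp of DNA polymerases, fell (log2 fold change -0.51, adjusted p = 0.045). With the length offset the call of PCNA was lost.

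Enzymes that use glutathione or thioredoxin were lower, whereas those that make glutathione were not called. Of 39 measured genes of the NRF2 and glutathione list 5 fell and 1 rose, against 1.25% and 0.252% of all genes, and the median was -0.21. The fallers were TXN, thioredoxin (log2 fold change -0.88, adjusted p = 0.033), the glutaredoxins GLRX (log2 fold change -0.65, adjusted p = 0.027) and GLRX2 (log2 fold change -0.55, adjusted p = 0.046), GSTM3, a glutathione transferase (log2 fold change -0.70, adjusted p = 0.028), and AKR1C1, a carbonyl reductase (log2 fold change -0.44, adjusted p = 0.027). The gene that rose was SOD2. All 9 genes that use glutathione were lower, with 3 called and a median of -0.45. Among the 6 genes of glutathione synthesis and recycling edgeR called none, with a median of -0.03. At an unadjusted p below 0.05 there was 1, which was higher and which DESeq2 called. GCLC and GCLM, the subunits of the rate-limiting ligase, had a log2 fold change of -0.11 ± 0.13 (SE, adjusted p = 0.77) and a log2 fold change of -0.09 ± 0.12 (SE, adjusted p = 0.81), and GSR, glutathione reductase, had a log2 fold change of 0.01 ± 0.10 (SE, adjusted p = 0.97). HMOX1, heme oxygenase, overlapped between groups and had a log2 fold change of -0.18 ± 0.12 (SE, adjusted p = 0.58), while MGST1, a microsomal transferase, had a log2 fold change of -0.40 ± 0.10 (SE, adjusted p = 0.072). TXN, GLRX and GLRX2 have transcripts under 1000 nt. Without any one untreated sample no gene of the list was called. The list had 1 rise and no fall without GO-Rg3 sample 1 or 3, and 1 rise and 8 falls without sample 2, and the other alternatives gave 2 to 10 falls. With the length offset the calls of TXN, GLRX and GLRX2 were lost.

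Across 42 lists, 21 had at least 1 member called and 21 had none, while 0.252% of all genes rose and 1.25% fell. Of the 400 genes of the lists without a call by edgeR, 19 were higher and 41 lower at an unadjusted p below 0.05, and DESeq2 called 8 in each direction. Of all 17092 genes tested DESeq2 called 155 higher and 490 lower. The lists with none were hypoxia targets (19 genes measured, median 0.05), glycolysis (21, 0.01), cholesterol synthesis and uptake (28, -0.03), the ATF4 stress response (24, 0.01), endoplasmic reticulum chaperones (22 genes), heat shock (15, -0.06), interferon response (19, -0.05), lysosome and autophagy (37, -0.03), endocytosis (20, 0.07), mitosis (32, -0.13), ribosome biogenesis (28, 0.05), iron handling (13 genes) and 9 further ones. VEGFA, an angiogenic factor, had a log2 fold change of -0.02 ± 0.11 (SE, adjusted p = 0.96), and HMGCS1, of cholesterol synthesis, a log2 fold change of -0.04 ± 0.16 (SE, adjusted p = 0.95). The 19 cytokine receptor and STAT3 feedback genes were all on the higher side with a median of 0.14. None was called by edgeR, 3 were higher at an unadjusted p below 0.05, and DESeq2 called 1. Of these IL17RA had a log2 fold change of 0.26, adjusted p = 0.24, IL4R a log2 fold change of 0.14, adjusted p = 0.62, CSF3R a log2 fold change of 0.22, adjusted p = 0.5 and C5AR1 a log2 fold change of 0.81, adjusted p = 0.56. Of 17 genes of the BCL2 family and apoptosis BIRC3 rose and BMF, a BH3-only protein that promotes cell death, fell (log2 fold change -0.59, adjusted p = 0.029), while BID had a log2 fold change of -0.31, adjusted p = 0.14.

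**Figure D4:**
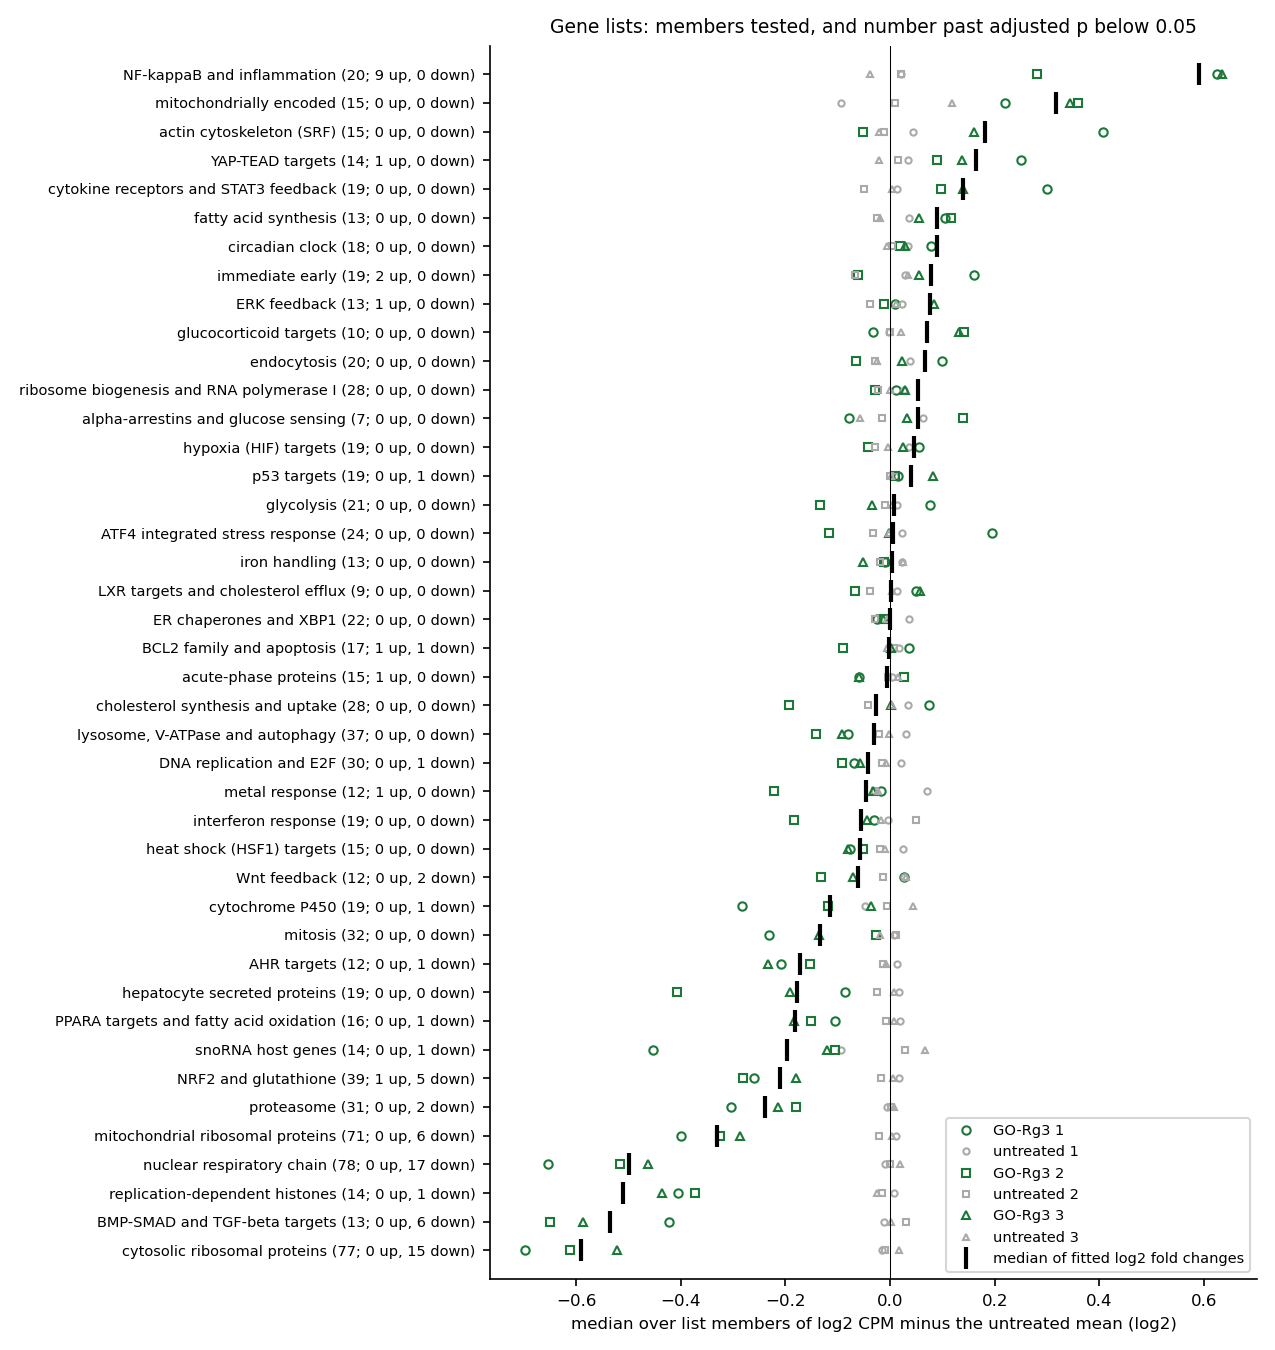
For 42 gene lists, the fitted median log2 fold change of GO-Rg3 against untreated cells and the median of each GO-Rg3 and untreated sample against the untreated mean, with the number of members that rose and fell beside each list. NF-kappaB and inflammation had the most rises (9), and the nuclear respiratory chain (17) and cytosolic ribosomal proteins (15) the most falls.

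Values after GO without Rg3, at the same dose and time, were set beside those of GO-Rg3. Both comparisons with untreated cells share the 3 untreated samples, so only the contrast of GO-Rg3 against GO tests a difference. That contrast called 2457 genes higher (14.4%) and 2224 lower (13.0%). Mitochondrially encoded genes took 24.1%, 12.1% and 14.8% of counts in the GO samples, against 6.89% to 7.42% with GO-Rg3, and GO sample 1 stood apart from the other two. In the study's quality table the GO sample listed first has the lowest RNA integrity number of the series, and a GO-Rg3 sample the lowest exon-mapped share. That table gives no replicate numbers, and a part of RNA quality in these results was not tested. Without GO sample 1 the contrast called 2164 genes higher and 1806 lower, and without GO-Rg3 sample 3 it called 1625 and 1378. Scaling by library totals alone gave 3075 higher and 1096 lower, that is, a larger share of higher calls. After GO the cytosolic ribosomal, nuclear respiratory chain and mitochondrial ribosomal lists were also lower, with medians of -0.49, -0.42 and -0.41 against untreated cells. In GO sample 1 their medians were 0.01, -0.07 and -0.13. Of their 77, 78 and 71 genes GO-Rg3 against GO called 1, 6 and 18 higher and 0, 2 and 0 lower. The median differences were -0.17, -0.13 and 0.15.

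CYP1A1 had 5.25, 4.25 and 3.96 CPM in the GO samples, below every GO-Rg3 sample. Against untreated cells its log2 fold change was -5.50 ± 0.12 for GO and -1.79 for GO-Rg3, and GO-Rg3 exceeded GO by 3.71 ± 0.11 on the log2 scale (adjusted p = 2.3e-11). DKK1 had 2.90, 3.37 and 3.42 CPM with GO, with a log2 fold change of -4.81 ± 0.15 against untreated cells, and GO-Rg3 exceeded GO by 3.66 ± 0.14 on the log2 scale (adjusted p = 5.1e-10). Both genes fell in both treatments and were lower with GO. ID3 (log2 fold change -1.84 ± 0.15 for GO) and SMAD7 (log2 fold change -1.64 ± 0.12 for GO) differed between the treatments by 0.61 ± 0.14 on the log2 scale (adjusted p = 0.0063) and 1.10 ± 0.12 on the log2 scale (adjusted p = 1.8e-05), again with the lower level after GO. SMAD6 had a log2 fold change of -0.82 ± 0.11 for GO, and its difference between treatments was 0.06 ± 0.12 on the log2 scale (adjusted p = 0.72).

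For the inflammatory genes the contrast went in both directions. BIRC3 was higher with GO (log2 fold change 1.70 ± 0.12 against untreated cells), and GO-Rg3 differed from it by -0.71 ± 0.12 on the log2 scale (adjusted p = 0.00062). ICAM1 and SOD2 had a log2 fold change of 1.31 ± 0.13 and a log2 fold change of 1.19 ± 0.10 with GO, and differences of -0.65 ± 0.13 on the log2 scale (adjusted p = 0.0026) and -0.54 ± 0.10 on the log2 scale (adjusted p = 0.0013). LCN2 had a log2 fold change of 3.65 ± 0.37 with GO and a difference of -1.74 ± 0.30 on the log2 scale (adjusted p = 0.00086). In contrast, the chemokines were higher with GO-Rg3. CXCL1 had 22.8, 18.9 and 16.7 CPM with GO, below all untreated and all GO-Rg3 samples, and a difference of 1.36 ± 0.11 on the log2 scale (adjusted p = 1.5e-06). CXCL2 and CXCL3 differed by 0.86 ± 0.14 on the log2 scale (adjusted p = 0.00068) and 0.64 ± 0.15 on the log2 scale (adjusted p = 0.0054). TNFAIP3 had a log2 fold change of 0.79 ± 0.12 with GO and a difference of 0.01 ± 0.12 on the log2 scale (adjusted p = 0.95), which does not show that the treatments act alike on it.

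TXN, GLRX and GLRX2, which fell with GO-Rg3, differed from GO by 0.01, 0.03 and 0.07 on the log2 scale (adjusted p = 0.97, 0.91 and 0.71). Several genes that changed after GO were not called after GO-Rg3. TXNIP, an inhibitor of thioredoxin that responds to glucose, had 64.6, 71.7 and 68.9 CPM with GO, and GO-Rg3 differed from GO by -1.79 ± 0.13 on the log2 scale (adjusted p = 3.5e-07), with a log2 fold change of -0.02 ± 0.13 (SE, adjusted p = 0.96) against untreated cells. MT1X, a metallothionein that binds zinc and copper, had 0.862, 0.829 and 0.792 CPM with GO and a difference of 3.37 ± 0.24 on the log2 scale (adjusted p = 3.2e-07). For GO-Rg3 against untreated cells MT1X had a log2 fold change of -0.51, adjusted p = 0.2. It was called in 3 of 13 alternatives and in 0 of 6 fits without a sample. All 5 metallothioneins measured were lower with GO-Rg3, with a median of -0.51. EdgeR and DESeq2 called 0 of them, and 3 were lower at an unadjusted p below 0.05, for which the share of all genes is not given here. VEGFA had a log2 fold change of 0.55 ± 0.11 for GO against untreated cells and a difference of -0.57 ± 0.11 on the log2 scale (adjusted p = 0.0023). GCLM had a log2 fold change of -1.06 ± 0.12 for GO and a difference of 0.98 ± 0.12 on the log2 scale (adjusted p = 9.1e-05), and IL17RA had a log2 fold change of 0.67 ± 0.10 and -0.42 ± 0.10 on the log2 scale (adjusted p = 0.0061). Conversely CDKN1A had 21.2, 23.6 and 24.4 CPM with GO, a log2 fold change of 0.05 ± 0.10 against untreated cells, and GO-Rg3 differed from GO by -0.63 ± 0.10 on the log2 scale (adjusted p = 0.0006). THBS1 was lower with GO (log2 fold change -0.34 ± 0.09) and differed by 0.82 ± 0.09 on the log2 scale (adjusted p = 2.5e-05), and SLC39A8 had a log2 fold change of -0.04 ± 0.10 with GO and differed by 0.59 ± 0.10 on the log2 scale (adjusted p = 0.0006). The differences named here for CYP1A1, DKK1, CXCL1, CXCL2, CXCL3, BIRC3, ICAM1, SOD2, TXNIP, MT1X, GCLM, CDKN1A and THBS1 stayed past an adjusted p of 0.05 in each of 20 alternative settings, and those of VEGFA and IL17RA in 19 of the 20.

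**Figure D5:**
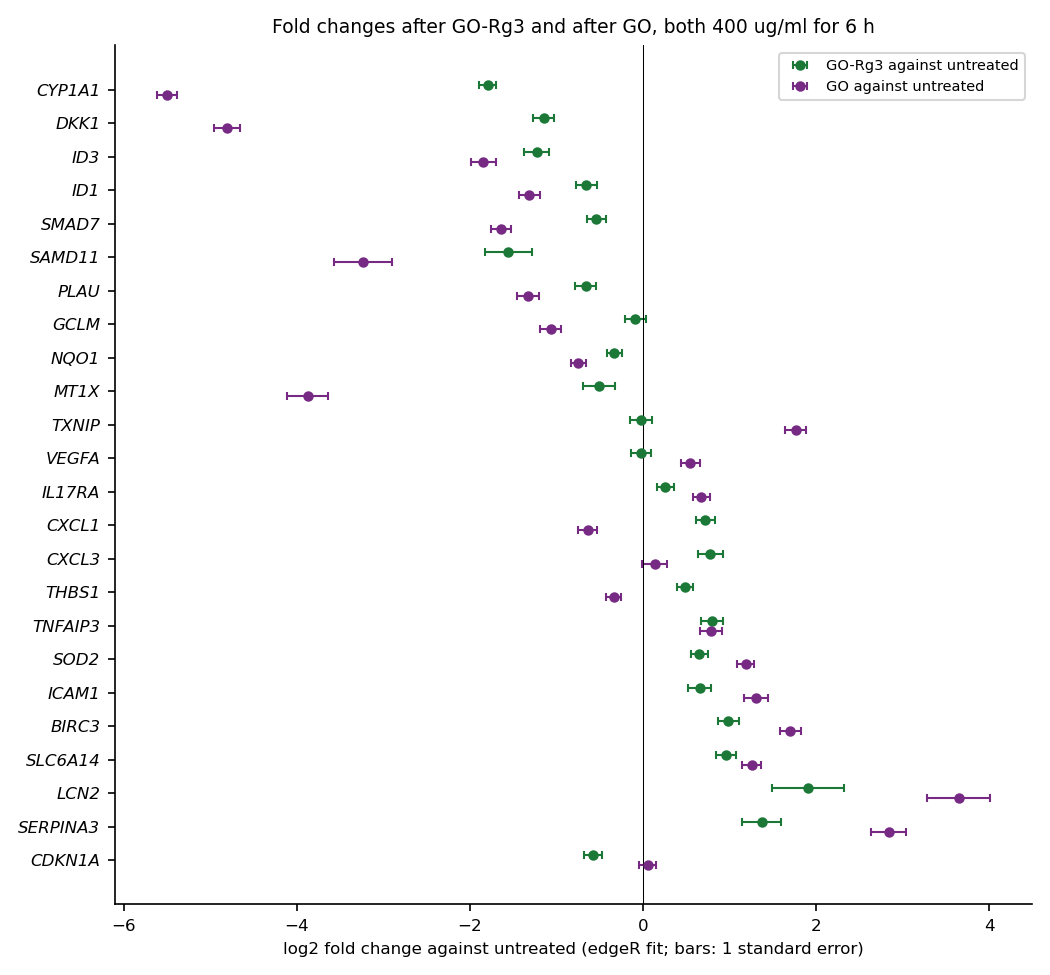
Log2 fold change (± 1 SE) against the 3 shared untreated samples of 24 genes after GO-Rg3 and after GO at the same dose and time. CYP1A1 and DKK1 lay lower with GO (-5.50 and -4.81) than with GO-Rg3 (-1.79 and -1.14), CXCL1 lay on opposite sides of 0 (-0.64 and 0.72), and CDKN1A lay below 0 with GO-Rg3 (-0.58) and at 0.05 with GO.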

How the data were processed

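RNA of 12 samples of Huh7 cells in 4 groups of 3 was analysed, with groups and replicate numbers taken from the sample labels. The authors prepared stranded mRNA libraries, aligned the reads to GRCh37 in the NGI RNAseq pipeline and used featureCounts to assign them to Ensembl genes. The authors deposited unnormalized read counts of 63677 genes, and counts per sample totalled 27802871 to 38877420. The annotation release and the strand setting of the counting are not given in the sources used here.

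A gene was kept if it reached 10 counts or more in 3 or more samples (17092 genes). Counts were scaled by TMM in edgeR 4.0.16 (R 4.3.3), and edgeR's quasi-likelihood model covered the 12 samples as 4 groups, without a replicate block. Benjamini-Hochberg adjustment was applied to each contrast over all genes tested, and SE is the log2 fold change divided by the square root of the F statistic. Rose and fell mean an adjusted p below 0.05. Counts of list members by DESeq2 stand against 155 genes higher and 490 lower of all genes tested. For an unadjusted p below 0.05 the count over all genes is not given here. The stricter call, an adjusted p below 0.01 with an absolute log2 fold change above 1, uses the thresholds of the study's methods, which name DESeq2. CPM values are TMM-normalized. The gene lists and the members named were chosen with earlier results of these data known, and lists are described by counts and medians, with no test. Genes named are those past the stricter call at a mean of at least 1 CPM, the 15 largest rises and falls, up to 6 called members of a list by smallest p, genes the study turned to, and the 4 most abundant members of a list without calls. Other genes are said to have been chosen after their values were seen. Not all genes that this rule covers are described.

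Alternatives were RLE scaling, library totals alone, mitochondrially encoded genes left out, no filter (35604 genes), at least 10 counts in every sample (13706 genes), DESeq2 1.42.0, a replicate block, only the 6 samples compared, offsets for GC content or transcript length (loess, span 0.5, 16310 genes with both values), other thresholds, and each sample left out in turn. The block with the length offset, and the block with only 6 samples, were chosen after seeing the data. On simulated counts for 17092 genes of this comparison the test recovered 186 of 200 genes simulated at a log2 fold change of 2, with 12 false calls, and 63 of 200 simulated at 0.6, with 6 false calls. Promoter windows came from RefSeq. Tables and plots were made with Python 3.11.15, pandas 2.3.3, scipy 1.17.1 and matplotlib 3.10.9.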

Additional observations from a re-analysis of the deposited data

How the results depend on the processing

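Counts of called genes depended strongly on the processing, while directions did not: the 43 rises and 214 falls kept their direction under every alternative in which they were measured. Cases with under 1.5-fold change in the counts are not listed. Unless said otherwise, the cause of a change was not tested.

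Under the stricter call, which gave 2 rises and 8 falls, the values were 4 rises with RLE scaling, 4 rises without mitochondrially encoded genes, 16 falls with library totals alone, 11 rises and 52 falls with no filter, and 6 and 32 with DESeq2. They were 4 and 16 with only the 6 samples compared, 4 and 16 with the GC content offset, 5 and 24 with that offset and the replicate block, 3 falls with the length offset, and 6 rises with the length offset and the block. An adjusted p below 0.05 with the same fold gave 7 and 42, and a log2 threshold of 0.5 gave 10 and 18. Leaving out each sample in turn gave 0 to 3 rises and 1 to 8 falls. At an adjusted p below 0.05 there were 131 rises and 622 falls with no filter (35604 genes) and 155 and 490 with DESeq2. They numbered 208 and 482 with only the 6 samples, 313 and 454 with the GC offset, and 509 and 617 with that offset and the block. The length offset gave 90 falls, and the length offset with the block gave 110 rises. Leaving out each sample gave 2 to 145 rises and 6 to 385 falls. For GO-Rg3 against GO, 1096 genes were lower with library totals alone, and leaving out each sample gave 1625 to 2865 higher and 1378 to 2659 lower.

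The labels give the same replicate numbers to each group and do not say what they stand for. Deviations from the group means of GO-Rg3 and untreated samples with the same number correlated at 0.24, 0.17 and 0.05 over 17092 genes. Samples with different numbers correlated at -0.19 to 0.02, and each GO-Rg3 sample correlated best with its own number. The main fit had no block because the study's methods name none, and whether the numbers pair the samples was not settled. With the replicate block the stricter call gave 3 rises and 21 falls, and the other 92 and 478, among them all 43 and 214. With the block and only the 6 samples it gave 3 and 20, and 247 and 495.

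Among named genes, log2 fold changes of 3 with values near 0 changed sign. GCLM had 0.0084 with the GC offset and 0.0079 with the block as well. VEGFA had 0.0092 with RLE scaling and with DESeq2, 0.0044 with library totals, 0.0028 without mitochondrial genes, 0.0492 with 6 samples, 0.0442 with these and the block, 0.017 with the GC offset and 0.0161 with that and the block. It ranged from -0.063 (without GO-Rg3 sample 1) to 0.0397 (without GO-Rg3 sample 2) when a sample was left out. TXNIP had 0.0062 with RLE scaling, 0.0057 with library totals, 0.0038 without mitochondrial genes, 0.0061 with DESeq2, 0.0427 with 6 samples and 0.0378 with these and the block. It ranged from -0.1097 (without GO-Rg3 sample 2) to 0.0906 (without GO-Rg3 sample 1). Of the other alternatives for named genes, called or not, 1385 stayed on the same side of the threshold, 407 lost a call and 26 gained one.

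With 3 samples a group, small shifts were near the limit of detection, as the simulated recovery of 63 of 200 genes at a log2 fold change of 0.6 shows. Genes under 1 CPM rested on fewer than 39 counts a sample. Scaling alternatives moved the median of all genes by at most 0.03. With only the 6 samples compared that median was 0.07, and with these and the block 0.06.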

Other observations

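The genes in these paragraphs were chosen after their values were seen. TBX2, a T-box repressor related to TBX3, had 43.99, 42.01 and 49.6 CPM without treatment and 27.3, 17.0 and 24.5 CPM with GO-Rg3, without overlap, and a log2 fold change of -0.98 ± 0.14 (SE, adjusted p = 0.0072). PPARG, a nuclear receptor of lipid storage, had 146, 151 and 147 CPM without treatment and 83.2, 99.7 and 95.8 CPM with GO-Rg3, again without overlap, and a log2 fold change of -0.67 ± 0.10 (SE, adjusted p = 0.0063). GATA2, known from blood progenitors, had a log2 fold change of -0.72, adjusted p = 0.022, and HOXA13, of the posterior body axis, had a log2 fold change of -0.80, adjusted p = 0.021. HEY1, a repressor downstream of Notch, had 9.07, 9.27 and 9.07 CPM without treatment and 5.57, 6.49 and 6.43 CPM with GO-Rg3 and a log2 fold change of -0.57 ± 0.11 (SE, adjusted p = 0.021). It had a log2 fold change of 0.12 ± 0.11 for GO against untreated cells, and GO-Rg3 differed from GO by -0.69 ± 0.11 on the log2 scale (adjusted p = 0.00049).

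IGFBP1, a carrier of insulin-like growth factors made by liver cells, had 3.04, 3.17 and 2.69 CPM without treatment and 1.62, 1.74 and 1.004 CPM with GO-Rg3 and a log2 fold change of -1.03 ± 0.21 (SE, adjusted p = 0.025). It was higher after GO (log2 fold change 0.52 ± 0.19), and GO-Rg3 differed from GO by -1.55 ± 0.21 on the log2 scale (adjusted p = 0.00013). TFF1 and TFF2, the trefoil factors of mucous epithelia, had a log2 fold change of -0.83, adjusted p = 0.048 and a log2 fold change of -0.64, adjusted p = 0.046. FST, follistatin, which traps activins and BMPs, had a log2 fold change of -0.61, adjusted p = 0.022, and BAMBI, a decoy receptor for the same ligand family, had a log2 fold change of -0.52, adjusted p = 0.018. SFRP5, a secreted Wnt antagonist, had 26, 19 and 30 counts without treatment and 12, 4 and 10 with GO-Rg3 (log2 fold change -1.46, adjusted p = 0.049). None of these genes had overlapping groups, which held for all 214 falls and for 16.6% of all genes on the lower side.

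Among the rises outside the lists, TNFAIP2, which is induced by tumor necrosis factor, had 122, 118.6 and 118.3 CPM without treatment and 205, 154 and 183 CPM with GO-Rg3 and a log2 fold change of 0.59 ± 0.12 (SE, adjusted p = 0.029). RUNX1, a transcription factor known from blood formation, had 9.44, 8.44 and 9.07 CPM without treatment and 14.3, 15.1 and 13.5 CPM with GO-Rg3 and a log2 fold change of 0.67 ± 0.10 (SE, adjusted p = 0.0082), and overlaps other annotated transcripts on both strands. SERPINB9, an inhibitor of granzyme B, had a log2 fold change of 0.42, adjusted p = 0.035, and NFATC2, a calcium-regulated transcription factor, had a log2 fold change of 0.52, adjusted p = 0.027.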
